A study of Mus musculus with 4 samples.

Results

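Ctsa, Ctsb, Ctsd, Ctsl, Ctss, Ctsz, Lgmn and Cst3 were taken by their symbols from the gene lists of the count matrices, as 8 of 27998 genes. They encode 6 cathepsins, legumain and cystatin C, the hydrolases of the lysosome that cut proteins and the secreted protein that inhibits many of them. All 8 symbols were found, and all 8 had counts in each library. Nuclei from hippocampi of B6 mice at 9 months were counted in 4 pooled libraries, 1 per genotype: P301S/EKO (7 hippocampi), P301S (8), EKO (7) and WT (7). P301S is a tau transgene with the P301S change, EKO is read as loss of Apoe after the study's title, which names apoE and tau-associated neurodegeneration, and P301S/EKO carries both. All groups share the strain and the age; the labels give no sex and name no promoter for the transgene. Other genotypes of the study were not analysed here. Each pool is 1 library, so no difference below has a replicate check and none was tested. The comparisons share libraries, so they are not independent of each other. Limits in brackets are 95% limits for counting error only.

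Lysosomal cathepsins are made as inactive precursors, carried to the acid lysosome and activated there by cutting. Cathepsin D is an aspartic protease; cathepsins B, L, S and Z are cysteine proteases related to papain; cathepsin A is a serine carboxypeptidase that also protects other lysosomal enzymes. Legumain cuts after asparagine and trims several cathepsins into their mature forms. Cystatin C, from Cst3, is secreted by many cells, abundantly by astrocytes and choroid plexus in the brain, and binds cysteine cathepsins and legumain, but not the aspartic cathepsin D. In the brain these enzymes are known above all from microglia, the resident phagocytes, and cathepsin S is largely a product of phagocytes.

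The library labels and the classes were checked first. Levels are given as CPM, a gene's UMIs over all UMIs of the same nuclei, scaled alike in every library. Apoe was at 19.6 CPM in P301S/EKO and 16.4 CPM in EKO, against 6402 CPM in P301S and 1932 CPM in WT, so both libraries labelled EKO were low. Prnp, whose promoter drives the transgene in a widely used P301S line, was at 738 CPM in P301S/EKO and 618 CPM in P301S, against 440 CPM in EKO and 375 CPM in WT. Kept nuclei numbered 5274, 2860, 5199 and 5234 in P301S/EKO, P301S, EKO and WT, with medians of 1421, 2142, 1444 and 1899.5 UMIs. Clusters were named from marker lists as "microglia-like" and so on, and the 8 members and the other lysosomal genes were left out of the clustering. Microglia-like nuclei numbered 328 in P301S/EKO, 313 in P301S, 136 in EKO and 204 in WT, and all 14 microglial markers were detected in each library. The summed markers of microglia in these nuclei stood at 7014, 5476 and 6597 CPM in P301S/EKO, P301S and EKO, against 3197 CPM in WT. Neuronal transcripts in the same nuclei ran the other way, at 22321, 22027 and 21091 CPM in P301S/EKO, P301S and EKO and 26334 CPM in WT. The part of this difference in the ratios below was not tested; values with mixed nuclei left out (nuclei outside neurons whose neuronal share exceeded 50% of the CA1 median) are therefore given beside them. That step kept 150, 110, 72 and 41 microglia-like nuclei in P301S/EKO, P301S, EKO and WT. The summed microglial markers then stood at 10119, 8832, 8202 and 5501 CPM. It removes only nuclei rich in neuronal transcripts. Summed oligodendrocyte markers in the kept microglia-like nuclei stood at 7942, 6743, 8459 and 6392 CPM. Oligodendrocyte-like nuclei (all of the class) held 8439, 7175, 7423 and 5605 CPM of them. The part of this RNA in the values below was not tested. Between 19 and 69 barcodes were shared by any pair of libraries, where chance gives 25.6 to 56.4.

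The genes lie apart on the GRCm38 assembly, also those that share chromosome 2. Cst3 (chr2:148871722-148875692), Ctsa (chr2:164832873-164841032) and Ctsz (chr2:174427493-174439039) share that chromosome. Ctss lies at chr3:95526786-95556403, Ctsd at chr7:142375911-142388038, Lgmn at chr12:102394084-102439813, Ctsl at chr13:64359337-64370890 and Ctsb at chr14:63122462-63145923, by GENCODE vM21. Ctsd and Ctsl each overlap a predicted gene, and Ctss a pseudogene, on the same strand, so reads in those stretches cannot be assigned to the member with certainty.

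Promoter sequences are shown because members that share a lysosomal function can share the letters bound by the transcription factor TFEB and its relatives, and because Ctsd, Ctss, Lgmn and Cst3 are the members whose levels part ways below. RefSeq promoter windows (GRCm38.p6, 250 bases before to 50 after each start) existed for 7 of the 8 members, in 9 windows; Ctsb had none. The letters CACGTG, which read the same on both strands, occurred in windows of 4 members (Ctsa, Ctsd, Ctsl and Lgmn), and in those of 8.09% of all genes; by window it occurred in 4 of 9 member windows and in 7.15% of all 32851. The longer form TCACGTG, searched on both strands and containing the shorter one, occurred in 3 members and in 4.29% of all genes. The full CLEAR consensus, which contains both shorter forms, occurred in 0 member windows and in 0.326% of all windows. GAGGAAGT, the core bound by the myeloid factor PU.1, occurred on either strand in Ctss alone of the members, and in 3.69% of all genes. The sequences run 5′ to 3′ along the gene from 250 bases before the RefSeq start to 10 after it, and capitals mark CACGTG or, in Ctss, GAGGAAGT read from the other strand. GENCODE begins Ctsd, Lgmn and Cst3 upstream of the RefSeq starts used here, so part of each of these windows lies inside the GENCODE gene. The printed Lgmn window, with its CACGTG, lies wholly inside it. The first Lgmn window, nearer the GENCODE start and not printed, holds no CACGTG. The Ctsl window and the second Ctsa window, which hold the CACGTG of these members, also lie wholly inside their GENCODE genes. The first Ctsa window, across the GENCODE start, holds none. Of the 4 members with CACGTG, only Ctsd holds it in a window that reaches upstream of its GENCODE gene.
Ctsd, chr7:142387818-142388077, minus strand: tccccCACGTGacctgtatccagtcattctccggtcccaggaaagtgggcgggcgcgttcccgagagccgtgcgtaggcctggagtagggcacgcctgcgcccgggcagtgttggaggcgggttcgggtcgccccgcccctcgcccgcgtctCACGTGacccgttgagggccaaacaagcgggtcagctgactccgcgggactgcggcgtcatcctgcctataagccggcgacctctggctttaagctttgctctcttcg
Lgmn, second of 2 windows, chr12:102439083-102439342, minus strand: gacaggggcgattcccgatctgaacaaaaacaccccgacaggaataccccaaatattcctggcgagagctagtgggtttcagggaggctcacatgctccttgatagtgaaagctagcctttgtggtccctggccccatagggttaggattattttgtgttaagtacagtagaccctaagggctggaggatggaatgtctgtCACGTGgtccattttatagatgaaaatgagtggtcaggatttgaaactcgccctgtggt
Ctss, chr3:95526536-95526795, plus strand: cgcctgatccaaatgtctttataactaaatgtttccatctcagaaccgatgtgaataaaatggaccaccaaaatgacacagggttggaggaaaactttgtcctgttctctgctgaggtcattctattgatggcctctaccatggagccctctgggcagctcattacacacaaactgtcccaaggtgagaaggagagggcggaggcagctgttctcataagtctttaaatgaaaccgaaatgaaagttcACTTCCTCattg
Cst3, chr2:148875503-148875762, minus strand: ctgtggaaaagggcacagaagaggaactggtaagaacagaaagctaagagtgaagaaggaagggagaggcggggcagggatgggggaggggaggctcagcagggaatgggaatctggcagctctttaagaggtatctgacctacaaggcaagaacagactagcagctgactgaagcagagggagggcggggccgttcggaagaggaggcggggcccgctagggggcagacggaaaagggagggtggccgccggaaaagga
In Ctsd the first CACGTG begins 245 bases and the second 98 bases before the start, and in Lgmn the match begins 49 bases before it. The Ctss match begins 2 bases before the start and runs across it. Ctsd and Lgmn both hold CACGTG, while in P301S/EKO over P301S microglia-like nuclei Ctsd stood lower and Lgmn higher; a match of letters is a description and shows no binding.

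Over whole libraries all 8 members stood higher in P301S than in WT, and all 8 stood lower in P301S/EKO than in P301S, with log2 ratios from -1.23 to -0.06 and a median of -0.35 beside -0.21 over all genes. Ctsd was at 354 CPM in P301S/EKO, 829 CPM in P301S, 195 CPM in EKO and 200 CPM in WT. Ctss was at 150, 213, 46.1 and 38.0 CPM in P301S/EKO, P301S, EKO and WT, and Ctsz at 67.9, 125, 34.9 and 34.8 CPM. For these 3 cathepsins EKO and WT were close and both transgenic libraries stood above them, P301S the higher. In P301S over WT 5 of 8 members were at least 1.5-fold higher, where 16.3% of all genes tested were that much higher. Only Ctsd and Ctsz, 2 of 8, were at least 1.5-fold lower in P301S/EKO over P301S (background, the share of all genes, 18.5%, so the count is near it), with 2.34-fold (2.25 to 2.45) for Ctsd. In EKO over WT 0 members passed 1.5-fold in either direction (background 8.5%), and in P301S/EKO over EKO 4 were higher (background 5.2%). A whole-library level joins the number of nuclei of a class and the level within it, which cannot be told apart there: microglia-like nuclei made up 8.50%, 18.2%, 3.52% and 8.01% of all UMIs in P301S/EKO, P301S, EKO and WT. For Ctss 72.0%, 75.9%, 68.9% and 70.8% of its UMIs came from microglia-like nuclei in those libraries, and for Ctsd 49.7%, 61.9%, 23.7% and 28.8%.

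Each member had its own spread over the classes. Ctss was the most restricted to one class, at 336 to 1275 CPM in microglia-like nuclei over the 4 libraries, with no overlap with endothelial cell-like nuclei, the next, at 21.1 to 97.3 CPM. Ctsd (717 to 2822 CPM) and Lgmn (609 to 1132 CPM) were also highest in microglia-like nuclei and did not overlap the next class, which was astrocyte-like for Ctsd (279 to 693 CPM) and inhibitory neuron-like for Lgmn (194 to 225 CPM). Ctsb, Ctsa, Ctsl and Ctsz had their highest median level in microglia-like nuclei too, but overlapped the class after it. Cst3 was the exception, highest in astrocyte-like nuclei at 6712 to 15018 CPM, above microglia-like nuclei at 2414 to 4462 CPM. The latter overlapped endothelial cell-like nuclei at 2728 to 4330 CPM, and every neuron-like class was below. Endothelial cell-like nuclei also held summed astrocyte markers at 2972 to 5395 CPM, against 10264 to 16896 CPM in astrocyte-like nuclei. The part of these in the endothelial Cst3 level was not tested. Counts at the 3′ end are not divided by gene length, so levels are compared between classes and libraries and not between genes.

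**Figure D1:**
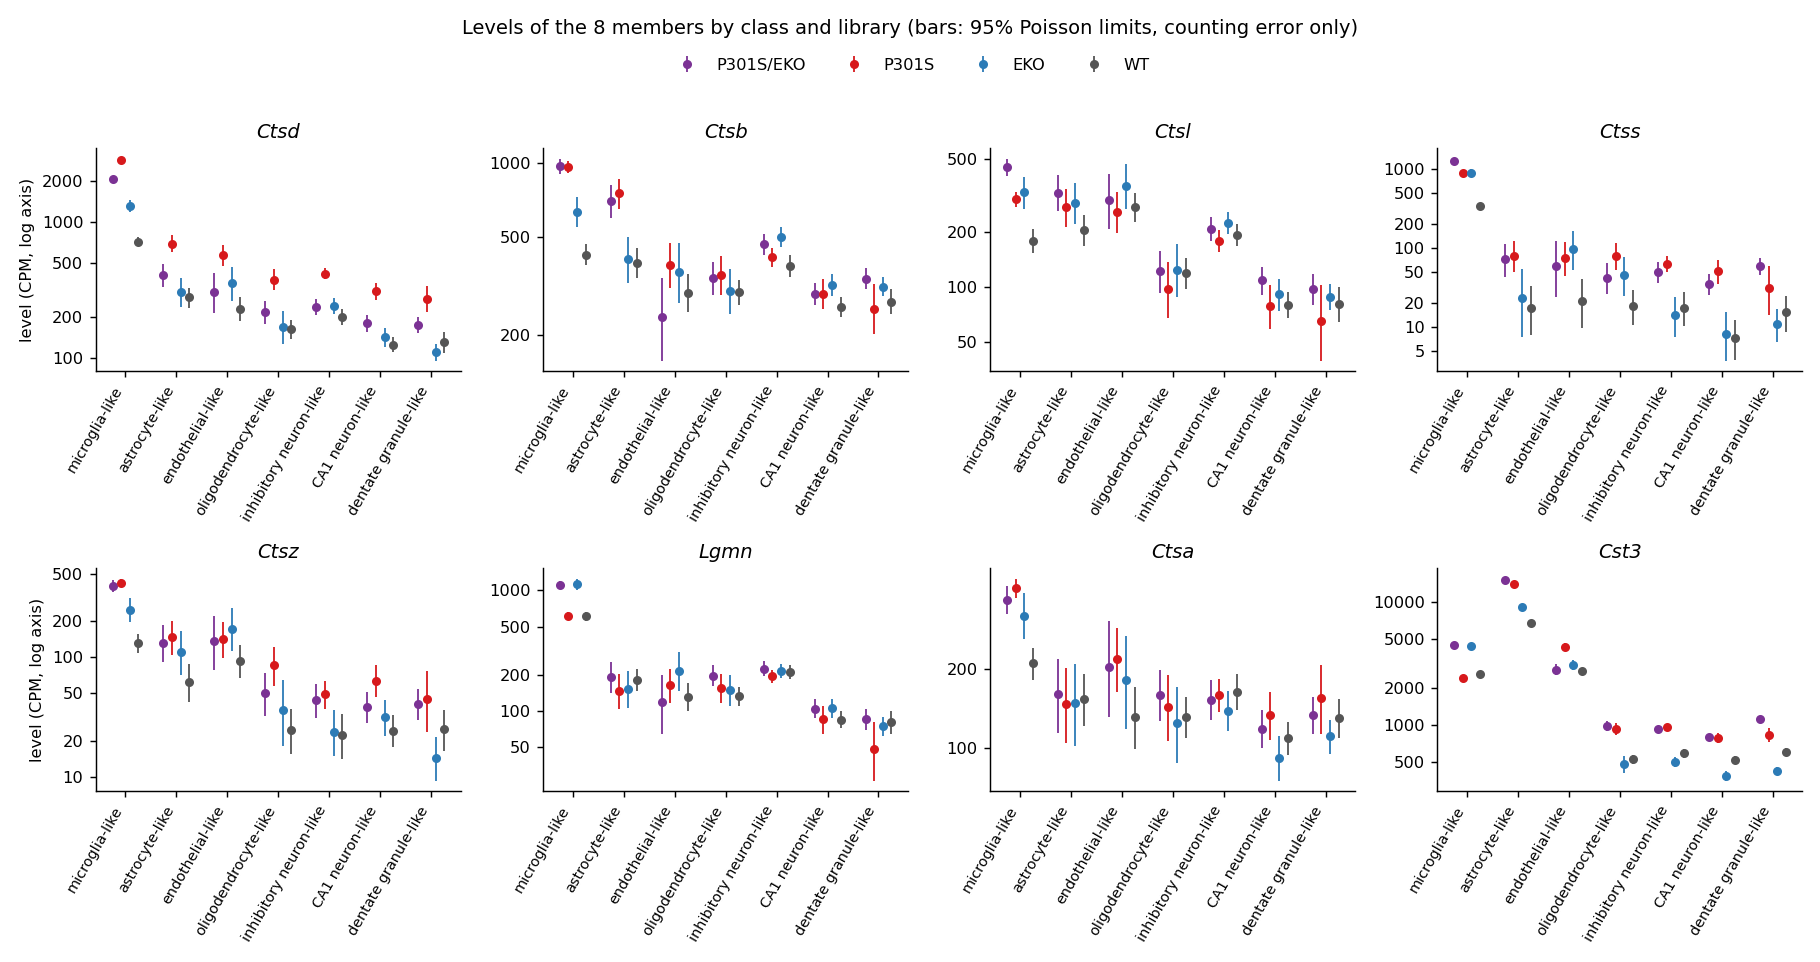
Levels in CPM (log axis) of each of the 8 members by class (x axis) and library (colour, P301S/EKO to WT from left to right), with 95% Poisson limits. Ctss is set apart in microglia-like nuclei, 336 to 1275 CPM, and Cst3 in astrocyte-like nuclei, 6712 to 15018 CPM.

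Cathepsin D, the aspartic protease, stood highest in P301S and lowest in WT microglia-like nuclei. It was at 2065 CPM in P301S/EKO, 2822 CPM in P301S, 1315 CPM in EKO and 717 CPM in WT. Both transgenic libraries were above both others, P301S was the highest of all, and P301S/EKO lay between P301S and EKO. In P301S over WT Ctsd was 3.93-fold higher (3.63 to 4.27), and 3.78-fold with mixed nuclei left out. It was 1.37-fold lower in P301S/EKO over P301S (1.29 to 1.45), short of the 1.5-fold call, a log2 ratio of -0.45 that stayed at -0.46 with mixed nuclei left out. It was 1.57-fold higher in P301S/EKO over EKO (1.41 to 1.76), and 2.05-fold with mixed nuclei left out. After each nucleus was thinned to 500 UMIs, 67.4%, 73.5%, 53.7% and 31.4% of microglia-like nuclei in P301S/EKO, P301S, EKO and WT held a Ctsd UMI. Before thinning these shares were 94.5%, 98.4%, 91.2% and 88.2%, at median depths of 1740, 3261, 1868 and 3909.5 UMIs. In CA1 neuron-like nuclei, a class with few microglial transcripts, the thinned shares were 9.54%, 15.7%, 7.00% and 6.34%.

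The cysteine cathepsins also stood higher in P301S than in WT microglia-like nuclei, and split between P301S/EKO and P301S into those that stood higher and those that were close. Ctss, which cuts the invariant chain of antigen-presenting molecules, was at 1275 CPM in P301S/EKO, 890 CPM in P301S, 901 CPM in EKO and 336 CPM in WT. Ctss thus stood lowest in WT and highest in P301S/EKO, with EKO and P301S close together. It was 2.65-fold higher in P301S over WT (2.34 to 3.00). In P301S/EKO over P301S it was 1.43-fold higher (1.31 to 1.56), short of the 1.5-fold call. With free RNA subtracted the log2 ratio in P301S over WT was 0.32 in place of 1.40, which ends the call. Ctsz, a carboxypeptidase, was at 393, 420, 250 and 131 CPM in P301S/EKO, P301S, EKO and WT, and 3.20-fold higher in P301S over WT (2.64 to 3.91). Ctsb, which works both within and at the end of protein chains, was at 966, 962, 632 and 425 CPM, and 2.27-fold higher in P301S over WT (2.03 to 2.54), a log2 ratio of 1.18 that was 0.40 relative to the microglial markers, short of the call. For Ctsz and Ctsb both transgenic libraries were close, with a ratio of P301S/EKO over P301S of 0.935 (0.810 to 1.08) for Ctsz and 1.00 (0.915 to 1.10) for Ctsb. Ctsl, an endopeptidase, was at 451, 300, 327 and 178 CPM in P301S/EKO, P301S, EKO and WT, with a log2 ratio of 0.59 in P301S/EKO over P301S. In P301S over WT it was 1.68-fold higher (1.41 to 2.03), but scaled to the microglial markers its log2 ratio was -0.024, the opposite sign. With that scaling P301S/EKO over P301S was at 0.16 for Ctss, 0.23 for Ctsl, -0.45 for Ctsz and -0.35 for Ctsb. Which members were close between these libraries thus depended on the scaling.

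Legumain and cystatin C stood higher in both libraries without Apoe than in both with it. Ctss and Ctsl were ordered so too, but for both the EKO and P301S levels lay close together. Lgmn was at 1113 CPM in P301S/EKO and 1132 CPM in EKO, against 614 CPM in P301S and 609 CPM in WT microglia-like nuclei. Cst3 was at 4462 CPM in P301S/EKO and 4346 CPM in EKO, against 2414 CPM in P301S and 2618 CPM in WT. This order did not hold in every setting: EKO over WT turned below 0 relative to the microglial markers (Lgmn -0.15, Cst3 -0.31) and with free RNA subtracted (Lgmn -0.26, Cst3 -0.25). Cst3 was 1.85-fold higher in P301S/EKO over P301S (1.76 to 1.94) and Lgmn 1.81-fold higher (1.64 to 2.00). In P301S over WT the ratios were 0.922 for Cst3 (0.875 to 0.971) and 1.01 for Lgmn (0.907 to 1.12), and in P301S/EKO over EKO 1.03 for Cst3 (0.964 to 1.09) and 0.983 for Lgmn (0.867 to 1.12). With mixed nuclei left out the log2 ratio of Cst3 in P301S over WT was -0.40, and that of Lgmn 0.28. Both ratios were lower with free RNA subtracted (Cst3 -1.53, Lgmn -1.0) and relative to the microglial markers (Cst3 -0.89, Lgmn -0.76), so whether these genes differed between P301S and WT depended on the processing. Ctsa, the serine carboxypeptidase, was ordered like Ctsd and Ctsz, at 365, 404, 318 and 209 CPM in P301S/EKO, P301S, EKO and WT, with a ratio of 0.902 in P301S/EKO over P301S (0.777 to 1.04). It was 1.93-fold higher in P301S over WT (1.64 to 2.28), but its log2 ratio of 0.95 was 0.17 relative to the microglial markers and 0.48 with free RNA subtracted, both short of the call.

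Counted over the 8 members, 6 were at least 1.5-fold higher in P301S over WT microglia-like nuclei and 0 lower, where 13.6% of 6951 genes were higher and 7.38% lower. Their median log2 ratio was 1.06, beside 0.05 over all genes. Cst3, Lgmn and Ctsl, 3 of 8, were higher in P301S/EKO over P301S and 0 lower (background 5.28% higher and 13.5% lower), with a median of 0.26 beside -0.07. In EKO over WT 7 were higher (background 7.83%), with a median of 0.87 beside -0.04. Between P301S/EKO and EKO 3 were higher in P301S/EKO (background 8.98%), with a median of 0.48 beside -0.01. With mixed nuclei left out 6, 2, 3 and 6 members were higher in these 4 comparisons, against backgrounds of 19.3%, 13.8%, 12.7% and 13% of 1005, 1525, 482 and 949 genes. The direction in EKO over WT turned with the scaling: the member median was -0.17 both relative to the summed microglial markers and with free RNA subtracted. Relative to the markers every member but Ctss (0.38) was below 0, from -0.47 for Ctsb to -0.11 for Ctsz. The same scaling ended the calls of Cst3 (0.53), Lgmn (0.50) and Ctsl (0.23) in P301S/EKO over P301S, set Ctsd past 1.5-fold lower (-0.81) and turned the member median to -0.10, beside -0.43 over all genes. Scaling to the markers set the median of all genes at -1.07 in EKO over WT and at -0.72 in P301S over WT, where the members' median was 0.29 with 3 members higher and 2 lower. In P301S over WT 2 members, Ctsd and Ctsz, stayed at least 1.5-fold higher under all 11 alternatives run.

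**Figure D2:**
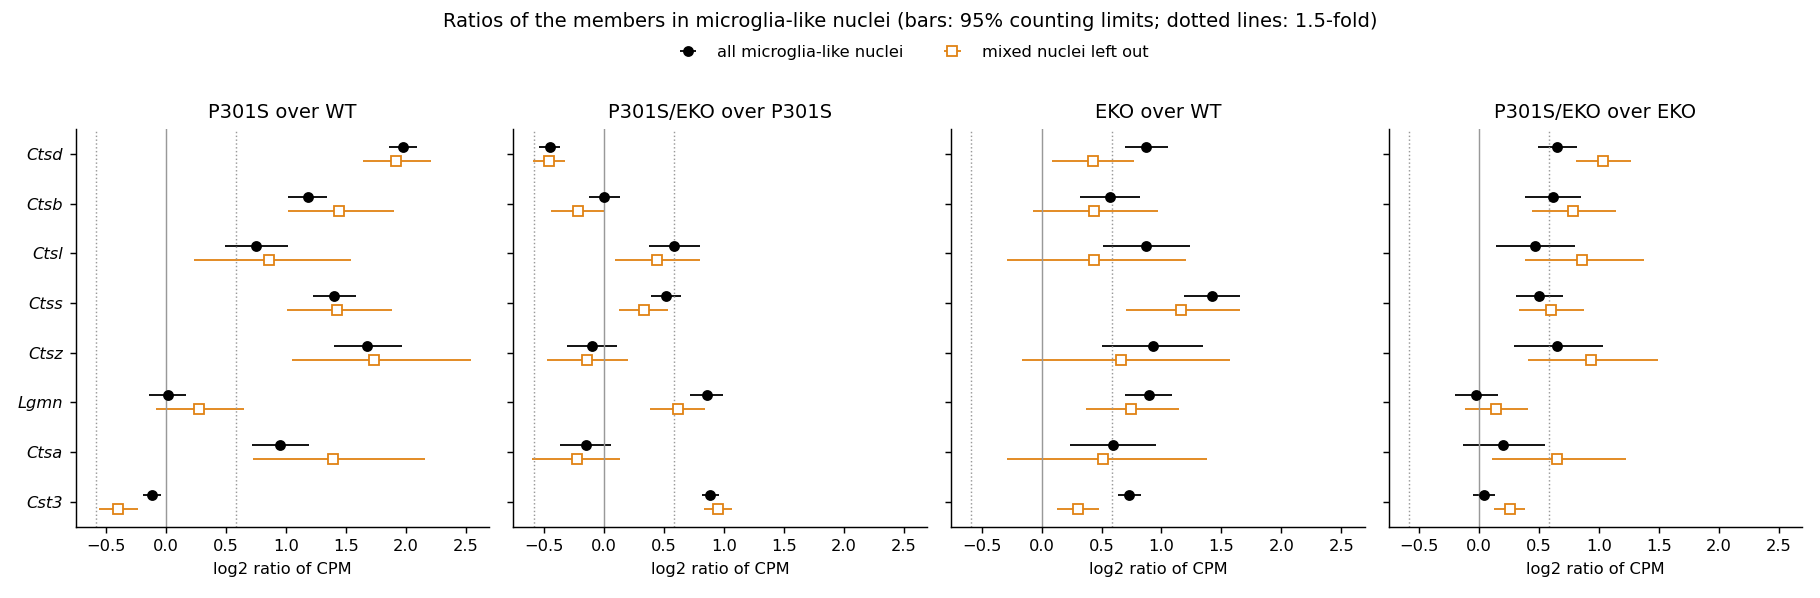
Log2 ratios of CPM (x axis) of each member (y axis) in microglia-like nuclei for the 4 comparisons, for all nuclei of the class (filled circles) and with mixed nuclei left out (open squares), with 95% counting limits. Ctsd is at 1.98 in P301S over WT and -0.45 in P301S/EKO over P301S, while Cst3 is at -0.12 and 0.89.

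The transgene ratios were set side by side without and with Apoe. For Ctsd in microglia-like nuclei the log2 ratio was 0.65 in P301S/EKO over EKO and 1.98 in P301S over WT, a difference of -1.32 (-1.52 to -1.13), and of -0.88 (-1.24 to -0.53) with mixed nuclei left out. The same difference was -0.90 for Ctss (-1.17 to -0.64) and -1.03 for Ctsz (-1.48 to -0.57). These directions did not hold with free RNA subtracted, a step that took 85.2% of the WT UMIs of this class. Ctsd was then at 1.11 in P301S/EKO over EKO and 1.07 in P301S over WT, Ctss at 0.93 and 0.32, and Ctsz at 1.10 and 0.75. Lgmn was then at 0.41 in P301S/EKO over EKO and -1.0 in P301S over WT, and Cst3 at 0.29 and -1.53. With free RNA subtracted the ratios of Lgmn and Cst3 thus stood apart, higher without Apoe than with it. Without that step the difference for Lgmn was -0.04 (-0.27 to 0.20) and for Cst3 0.16 (0.04 to 0.27). These limits cover counting error in 4 pools, and the difference between the ratios was not tested.

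The make-up of the members within a class is unaffected by a factor common to all genes of a library. Free RNA is not such a factor: its subtraction took 71.2% of the P301S and 85.2% of the WT microglia-like UMIs. Its part in the shares was not tested. Of all UMIs of the 8 members in microglia-like nuclei, Ctsd took 18.6% in P301S/EKO, 32.0% in P301S, 14.3% in EKO and 13.7% in WT. Cst3 took 40.2%, 27.3%, 47.1% and 50.1% in the same order of libraries. Ctsd held its largest and Cst3 its smallest share in P301S, and P301S/EKO lay between P301S and both libraries without the transgene for each gene. The shares are parts of the same total, so a larger Ctsd share lowers those of the others. The Cst3 level itself was at 2414 CPM in P301S and 2618 CPM in WT. Ctss took 11.5%, 10.1% and 9.77% in P301S/EKO, P301S and EKO, and 6.44% in WT. Lgmn took 10.0%, 6.96%, 12.3% and 11.7% in P301S/EKO, P301S, EKO and WT. The ratio of Ctsd to Lgmn UMIs was 1.86 in P301S/EKO, 4.59 in P301S, 1.16 in EKO and 1.18 in WT; with mixed nuclei left out it was 2.04, 4.30, 1.10 and 1.38. This pair was chosen after its values were seen.

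**Figure D3:**
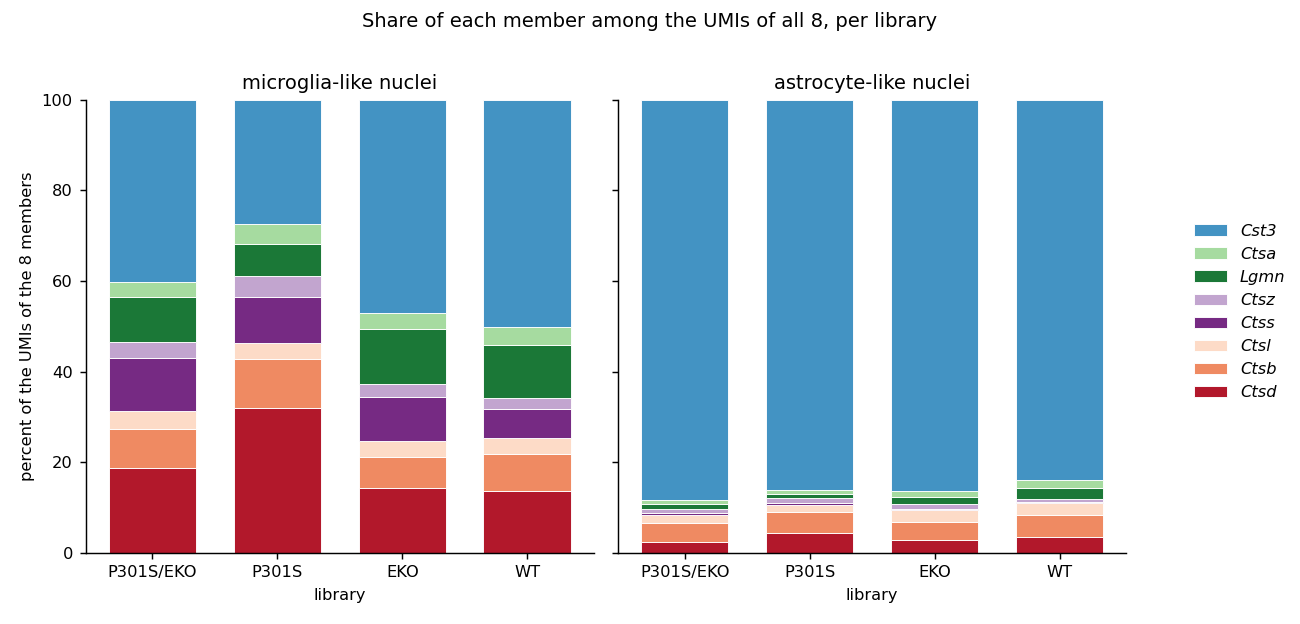
Share of each member among the UMIs of all 8 members (y axis, percent) in each library (x axis), in microglia-like and astrocyte-like nuclei. In microglia-like nuclei Ctsd takes 32.0% in P301S and 13.7% in WT, while in astrocyte-like nuclei Cst3 takes 83.9% to 88.3% in each library.

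Microglia-like nuclei were also split by 10 transcripts known from disease-associated microglia (Itgax, Spp1, Gpnmb, Lpl, Csf1, Axl, Clec7a, Ch25h, Cybb and Igf1), a list chosen after the values were seen. With mixed nuclei left out, nuclei with at least 2 UMIs of these transcripts numbered 12 of 150 in P301S/EKO, 62 of 110 in P301S, 1 of 72 in EKO and 0 of 41 in WT. In P301S nuclei with no such UMI, Ctsd was at 3904 CPM (3413 to 4446), against 1274 CPM (1040 to 1545) in WT nuclei with none. In P301S nuclei with at least 2 such UMIs Ctsd was at 4762 CPM (4452 to 5088). Ctsd in P301S thus stood above WT in nuclei without a count of these transcripts. WT had 0 nuclei with at least 2 such UMIs, so no like comparison existed there. Among nuclei with 1 such UMI Ctsd was at 3337 CPM (2807 to 3938) in P301S (21 nuclei) and 597 CPM (286 to 1098) in WT (5 nuclei). For P301S/EKO it was at 3307, 2346 and 4127 CPM with no, 1 and at least 2 such UMIs. Ctsd did not rise step by step with the count in either transgenic library. Lgmn was at 903 CPM (771 to 1052) in P301S nuclei with at least 2 such UMIs and at 1324 CPM (1045 to 1655) in those with none. Cst3 was at 3282 CPM (3025 to 3554) in P301S nuclei with at least 2 such UMIs and at 4093 CPM (3590 to 4648) in those with none. P301S/EKO nuclei with none held Lgmn at 1685 CPM (1489 to 1900), with limits that overlap those of P301S nuclei with none. Their Cst3 was at 7202 CPM (6790 to 7632). Both P301S sets differed in depth, with medians of 2362.5 and 1772 UMIs, and the part of depth in the split was not tested.

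Other genes of the lysosome were read from lists in all microglia-like nuclei, where 13.6% of all genes were higher in P301S over WT and 7.38% lower. Scaling to the microglial markers moves each ratio of this comparison by about -0.77, a shift larger than the list medians of 0.45, 0.57, 0.45 and 0.12 below. Free RNA subtraction moved the median of all genes by -0.50. The counts and medians of the lists are given without these steps. Of the other lysosomal peptidases 8 of 13 were measured, and 3 were at least 1.5-fold higher in P301S over WT, where the list's median log2 ratio was 0.45: Ctsh (1.61), Ctsc (1.32), which activates serine proteases of immune granules, and Scpep1 (1.29). Of glycosidases, lipases and their activators 19 of 20 were measured and 9 were higher, with a median of 0.57, among them Grn (1.35), the precursor of granulins, and Npc2 (1.22), a cholesterol carrier. Of membrane and sorting proteins 13 of 13 were measured, 5 higher and 1 lower, with a median of 0.45, led by Cd63 (1.83), Cd68 (0.97) and Lamp2 (0.78). Proton pump subunits and lysosome transcription factors had 3 of 17 higher, near the share of all genes, and a median of 0.12, led by the 3 factors Mitf (1.02), Tfeb (0.85) and Tfe3 (0.62). Among inhibitors Cst7, the cystatin F of immune cells, had 46 UMIs (33.9 CPM) in P301S and 0 in WT, at least 10.9-fold higher against a floor of 3 counts in WT. Serpinb6a was at 0.72 and Cstb at 0.49. On the neuronal list 0 of 9 were higher and 1 lower, with a median of -0.29 and Nrgn (-0.87), Syt1 (-0.43) and Snap25 (-0.39) farthest from 0.

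Between P301S/EKO and P301S the same lists had medians from -0.05 to 0.15, apart from the inhibitors at -0.54. Scaling to the microglial markers moves each ratio of this comparison by about -0.35. Of all genes 13.5% were lower and 5.28% higher there, so the counts of lower genes below are near or under that share for the glycosidase, membrane and pump lists. Of 8 other peptidases 0 passed 1.5-fold, with a median of -0.03 and Ctsf (0.32), Dpp7 (-0.20) and Ctsh (-0.17) the farthest from 0. Among glycosidases, lipases and activators 2 of 19 were lower, Glb1 (-1.08) and Gusb (-0.65), with a median of 0.07. Among membrane and sorting proteins 1 of 13 was higher (Igf2r, 0.63) and 1 lower (Gnptab, -0.93), and Cd63 was at -0.55. Of the pump and factor list 0 of 17 were higher and 2 lower, Tfeb (-1.47, at 6.63 CPM in P301S/EKO and 19.2 CPM in P301S) and Atp6v1h (-0.64), with Atp6v1d at 0.39. Of 4 inhibitors 2 were lower, Cst7 (-1.19, at 14.6 CPM in P301S/EKO and 33.9 CPM in P301S) and Cstb (-0.59), and Serpinb6a was at -0.48. On the neuronal list Nrgn (0.64) was higher, with Rbfox3 at 0.42 and Celf4 at -0.33.

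In astrocyte-like nuclei the member that stood out was Cst3. It was at 15018 CPM in P301S/EKO, 13953 CPM in P301S, 9088 CPM in EKO and 6712 CPM in WT. Both transgenic libraries were above both others, while in microglia-like nuclei the order was P301S/EKO and EKO above P301S and WT, with the limits on EKO over WT given there. Cst3 was 2.08-fold higher in P301S over WT (1.98 to 2.18) and 1.65-fold higher in P301S/EKO over EKO (1.56 to 1.75). The summed astrocyte markers of these nuclei were 16896, 15848 and 15336 CPM in P301S/EKO, P301S and EKO and 10264 CPM in WT, and neuronal transcripts 5464, 6176, 4948 and 11948 CPM. With mixed nuclei left out Cst3 was at 15807, 14929, 9199 and 8273 CPM, a log2 ratio of 0.85 in P301S over WT and 0.78 in P301S/EKO over EKO; relative to the astrocyte markers P301S over WT was 0.43, which ends the call. In EKO over WT Cst3 had a log2 ratio of 0.44, and -0.14 relative to the astrocyte markers, the opposite sign. Choroid plexus markers, from a tissue rich in Cst3, stood at 1447, 1590, 111 and 516 CPM in these nuclei of P301S/EKO, P301S, EKO and WT, with 6, 4, 2 and 3 of 8 markers detected, and their part in the Cst3 values was not tested.

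Among the other members in astrocyte-like nuclei Ctsd was at 407 CPM in P301S/EKO, 693 CPM in P301S, 305 CPM in EKO and 279 CPM in WT. It was 2.48-fold higher in P301S over WT (1.98 to 3.11) and 1.71-fold lower in P301S/EKO over P301S (1.33 to 2.19). Ctsb was at 698 and 750 CPM in P301S/EKO and P301S, against 407 and 394 CPM in EKO and WT, so it grouped by the transgene. Ctsl, Ctsa and Lgmn were within 1.5-fold in all 4 comparisons. In all, 5 members were higher in P301S over WT (background 18.3%), of which 3 (Ctsd, Ctss and Ctsz) were left relative to the astrocyte markers, with 2 lower, Lgmn and Ctsa. A single member, Ctsd (1 of 8), was lower in P301S/EKO over P301S (background 9.49%). Of 7 measured 1 was higher in EKO over WT (background 10.7%), and 3 of 8 were higher in P301S/EKO over EKO (background 14.6%). Microglial markers in astrocyte-like nuclei, like Ctss, stood highest in P301S, at 391, 674, 166 and 202 CPM in P301S/EKO, P301S, EKO and WT, beside 71.7, 79.1, 23.1 and 17.5 CPM of Ctss. Their part in the ratios of Ctss and Ctsd was not tested.

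In most classes Ctsd stood higher in P301S than in WT and lower in P301S/EKO than in P301S. In P301S over WT it was at least 1.5-fold higher in 9 of 9 named classes with enough nuclei, from a log2 ratio of 1.05 in inhibitory neuron-like to 1.98 in microglia-like nuclei. Of the same 9 classes 8 were at least 1.5-fold lower in P301S/EKO over P301S, between a log2 ratio of -1.45 for the CA2 or CA3 class and one of -0.64 for the dentate granule class; microglia-like nuclei were at -0.45. Over 10 classes EKO over WT ran between -0.24 and 0.87. Ctsd in CA2 or CA3 neuron-like nuclei was at 119 CPM in P301S/EKO, 327 CPM in P301S, 106 CPM in EKO and 115 CPM in WT, so P301S alone was high there. In inhibitory neuron-like nuclei it was at 238, 418, 241 and 202 CPM in P301S/EKO, P301S, EKO and WT, with the same order of P301S above the rest. The share of all genes that were higher in P301S over WT was 12.8% for dentate granule, 12.6% for CA1, 13.5% for CA2 or CA3, 8.2% for subicular or cortical and 8.74% for inhibitory neuron-like nuclei, 8.31% for oligodendrocyte-like and 10.3% for endothelial cell-like nuclei. The share that was lower in P301S/EKO over P301S was 11.6%, 12.5%, 14.7%, 9.2%, 10%, 9.16% and 14.2% in that order of classes.

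In both CA classes counts of microglial genes also stood highest in P301S, as Ctsd did. Ctss in CA1 neuron-like nuclei was at 34.9 CPM in P301S/EKO, 50.7 CPM in P301S, 8.08 CPM in EKO and 7.16 CPM in WT. The summed microglial markers there were 185, 340, 93.3 and 82.6 CPM, and 14, 14, 13 and 14 of the 14 markers had a count. In CA2 or CA3 neuron-like nuclei the microglial markers were at 152, 313, 75.2 and 66.0 CPM. The Ctsd that goes with the Ctss count, at the ratio of microglia-like nuclei with mixed nuclei left out, was then taken away. This left 118, 152, 132 and 110 CPM of Ctsd in CA1 neuron-like nuclei of P301S/EKO, P301S, EKO and WT. For CA2 or CA3 neuron-like nuclei 55.5, 174, 87.9 and 97.3 CPM were left. In subicular or cortical neuron-like nuclei 130, 140, 163 and 137 CPM were left, and in inhibitory neuron-like nuclei 149, 222, 222 and 163 CPM. In dentate granule neuron-like nuclei Ctss was highest in P301S/EKO, at 58.8 CPM, beside 30.8, 10.7 and 15.3 CPM in P301S, EKO and WT. The P301S value rests on 9 UMIs (14.1 to 58.5 CPM). Microglial markers there stood at 237, 483, 107 and 94.6 CPM in P301S/EKO, P301S, EKO and WT. Unlike Ctss, these markers were highest in P301S. Of Ctsd 69.8, 178, 96.6 and 97.0 CPM were left in dentate granule neuron-like nuclei. The amounts left carry no limits, and the one for dentate granule neuron-like nuclei of P301S depends on those few Ctss UMIs. As point values, the amount left at the Ctss ratio was highest in P301S in CA1, CA2 or CA3 and dentate granule neuron-like nuclei. EKO was level with P301S in inhibitory and above it in subicular or cortical neuron-like nuclei. The step was added after the values were seen and assumes that all Ctss counts in neuron-like nuclei come from microglia. Whether the order holds with the summed microglial markers in place of Ctss was not tested.

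**Figure D4:**
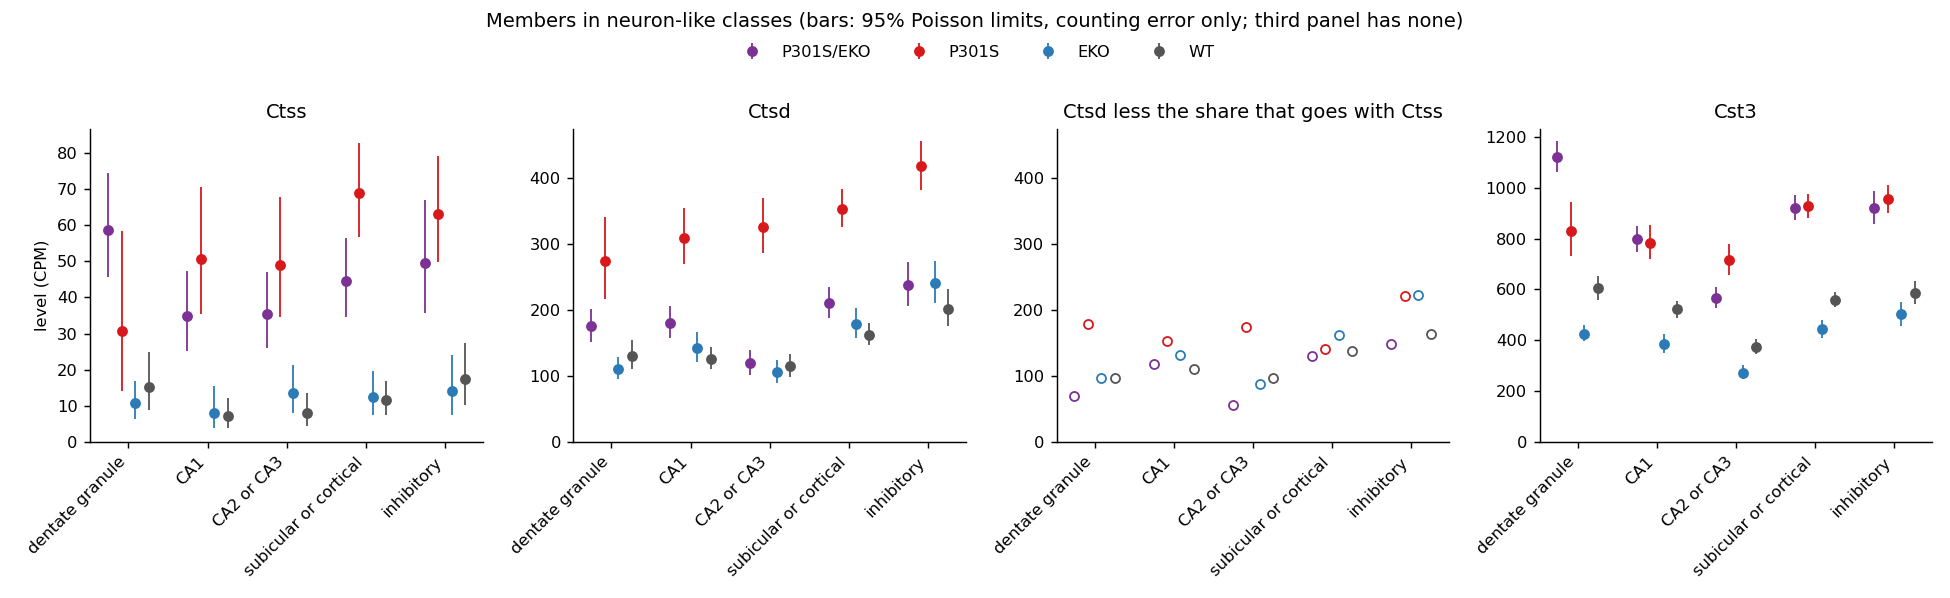
Levels in CPM (y axis) of Ctss, Ctsd, Ctsd less the share that goes with Ctss (open circles, no limits), and Cst3 in the 5 neuron-like classes (x axis) by library, with 95% Poisson limits on filled points. Ctsd in CA2 or CA3 neuron-like nuclei is at 327 CPM in P301S and 119 CPM in P301S/EKO, and 174 and 55.5 CPM are left after the step.

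Cst3 stood higher in both transgenic libraries than in both others in each of the 5 neuron-like classes. In dentate granule neuron-like nuclei it was at 1123 CPM in P301S/EKO, 832 CPM in P301S, 426 CPM in EKO and 606 CPM in WT, and in CA1 neuron-like nuclei at 797, 783, 385 and 522 CPM. EKO was the lowest in each of the 5 neuron-like classes. In P301S over WT Cst3 was at least 1.5-fold higher in 7 of 9 named classes. The exceptions were microglia-like nuclei (-0.12) and dentate granule neuron-like nuclei. Cst3 was at least 1.5-fold higher in P301S/EKO over EKO in 8 of 10 named classes, up to a log2 ratio of 1.40 in dentate granule neuron-like nuclei, and not in microglia-like (0.04) or endothelial cell-like nuclei (-0.13). The share of all genes that much higher was 5.41% for dentate granule, 4.38% for CA1, 5.04% for CA2 or CA3, 5.57% for subicular or cortical and 4.56% for inhibitory neuron-like nuclei, 7.22% for oligodendrocyte-like, 6.07% for oligodendrocyte precursor-like and 13.6% for endothelial cell-like nuclei. The whole-library Cst3 level was at 1600 CPM in P301S/EKO and 796 CPM in EKO, 2.01-fold (1.95 to 2.07). Choroid plexus markers stood at 279 CPM in P301S/EKO, 914 CPM in P301S, 77.2 CPM in EKO and 312 CPM in WT CA1 neuron-like nuclei (4, 7, 3 and 4 of 8 detected), and astrocyte markers at 308, 379, 250 and 334 CPM. Their part in the Cst3 values was not tested.

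Genes among the 3 most alike to each member were found over 39 sums of a class in a library, from 10 classes, among 11109 genes, by Pearson correlation of log2(CPM + 1). The sums share libraries, depth and free RNA, so the values are descriptions. Ctss went with the complement genes C1qb (0.96), C1qc (0.96) and C1qa (0.95), and Ctsd with C1qa (0.93), C1qb (0.92) and Ctss (0.91); the C1q genes are themselves markers that named the microglia-like class. Lgmn went with Man2b1 (0.85) and Mbnl1 (0.83), and Ctsa with Grn (0.89) and Ctsd (0.88). Ctsb went with Ctsd (0.80), Psap (0.80) and Lgmn (0.79), and Ctsz with Ctsd (0.87), Unc93b1 (0.87) and Itgb5 (0.84). Ctsl was closest to Bcap31 (0.92), Rnaset2a (0.89) and Rnaset2b (0.89), and Cst3 to Sparc (0.92), Glul (0.91) and Gja1 (0.90). Gja1 is itself a marker that named the astrocyte-like class. Among the members the least alike pairs were Lgmn with Cst3 (0.47) and Ctsl with Ctss (0.55).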

How the data were processed

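Single-nucleus RNA was counted with the 10x 3′ kit, per the labels' protocols, in 4 pooled libraries of 7 or 8 hippocampi, 1 per genotype. Each deposited matrix gives, as the authors left it, the UMI count (whole numbers) of 27998 genes in every barcode. The submitters' processing notes name Cell Ranger, Seurat and the mm10 genome; their versions, and whether intron reads were counted, are not stated in the sources used here. Total counts were 11358953 in P301S/EKO, 8369762 in P301S, 10283013 in EKO and 14251675 in WT.

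Groups came from the labels. Nuclei needed 200 or more detected genes and no more than 5% of UMIs from mitochondrial genes. Scrublet's own threshold called 0 or 1 doublets per library, so the highest scores were removed at 0.8% per 1000 barcodes (302, 74, 261 and 271 nuclei of P301S/EKO, P301S, EKO and WT). All nuclei were clustered together (2000 variable genes, 30 components, 15 neighbours, Leiden resolution 1) without the members, the pathway lists, mitochondrial genes, sex-linked genes, Mapt, Prnp and Apoe. Of 20 clusters 17 were named when at least 3 markers of 1 of 17 sets stood out; the other 3 (1816 nuclei) have no name. Choroid plexus-like and fibroblast-like nuclei were under 50 in every library and oligodendrocyte precursor-like nuclei under 50 in P301S, so these have no ratios there. Counts were summed per class and library and scaled to CPM; log2 ratios carry a prior of 0.5 UMI. A call is a ratio of at least 1.5-fold; members and list genes needed 20 UMIs over both libraries, background genes 50. Limits are 95%: exact Poisson for levels, exact conditional binomial for ratios. With 1 library per genotype no test was possible. Code was tested on simulated data.

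Genes were named by a rule: the members, the 3 genes most alike to each, and up to 3 genes per pathway list with the largest ratios in P301S over WT and P301S/EKO over P301S; a few genes that the rule names are not reported here. The members and lists were chosen with earlier results of these data known. Alternatives are given in the closing section; scaling to the class markers was added after the values were seen. Clustering ran in scanpy 1.11.5 with igraph 0.11.9 and scikit-learn 1.9.0; sums and limits in pandas 2.3.3, scipy 1.17.1 and numpy 2.4.6 under Python 3.11.15; figures in matplotlib 3.10.9.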

Additional observations from a re-analysis of the deposited data

Results flagged for a closer look

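In 4 cases a member's log2 ratio lay past 1.5-fold in opposite directions under the same contrast in the 2 backgrounds; these differences were not tested, and each side is 1 pool against 1 pool. The cases were picked from many pairs of a member and a class, and the share of all genes that reverse so is not given. The Ctss and Ctsz cases rest on 7 to 28 UMIs per library. For Ctsd in endothelial cell-like nuclei the ratio was -0.89 in P301S/EKO over P301S (36 and 136 UMIs) and 0.62 in EKO over WT (51 and 98 UMIs). For Ctss in oligodendrocyte-like nuclei it was -0.92 in P301S/EKO over P301S (21 and 28 UMIs) and 1.29 in EKO over WT (14 and 17 UMIs). For Ctss in endothelial cell-like nuclei it was -0.68 in P301S/EKO over EKO (7 and 14 UMIs) and 1.77 in P301S over WT (18 and 9 UMIs). For Ctsz in CA2 or CA3 neuron-like nuclei it was -1.61 in P301S/EKO over P301S (12 and 22 UMIs) and 1.22 in EKO over WT (14 and 7 UMIs). Microglial markers stood at 517 CPM in P301S/EKO, 824 CPM in P301S, 563 CPM in EKO and 241 CPM in WT endothelial cell-like nuclei, and at 348, 526, 186 and 160 CPM in oligodendrocyte-like nuclei. In CA2 or CA3 neuron-like nuclei they stood at 152, 313, 75.2 and 66.0 CPM. Their part in these ratios was not tested.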

How the results depend on the processing

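No paired analysis was possible because each genotype has 1 library. For single members in microglia-like nuclei 32 ratios met 352 alternatives: 268 stayed within the counting limits, 72 moved beyond them, and 12 called values changed sign. In astrocyte-like nuclei 308 of 338 stayed, 30 moved and 0 called values changed sign; of the astrocyte-like medians and counts 81 of 92 stayed and 11 moved. The median of the members in P301S over WT microglia-like nuclei, 1.06, was 1.41 with mixed nuclei left out, 0.43 with free RNA subtracted and 0.29 scaled to the class markers. In P301S/EKO over P301S the median, 0.26, was 0.39 with median-of-ratios scaling, 0.42 with equal weight per nucleus, 0.10 with mixed nuclei left out, 0.47 with free RNA subtracted and -0.10 scaled to the class markers; its count of 3 members, all higher, was 1 with class markers (0 higher and 1, Ctsd, lower) and 0 at 2-fold. In EKO over WT the median, 0.87, was 0.48 with mixed nuclei left out, and reversed to -0.17 both with free RNA subtracted and scaled to the class markers; its count of 7 was 3 with mixed nuclei left out, 0 with free RNA subtracted, 0 with class markers and 1 at 2-fold. In P301S/EKO over EKO the median, 0.48, was 0.95 with free RNA subtracted; its count of 3 was 1 with doublets kept, 6 with mixed nuclei left out, 6 with free RNA subtracted, 0 with class markers and 0 at 2-fold. Of single members that were past 1.5-fold, Ctsl in P301S over WT reversed to -0.024 with class markers. In EKO over WT with free RNA subtracted Ctsa was at -0.10, Ctsd at -0.27, Ctsz at -0.23, Lgmn at -0.26 and Cst3 at -0.25, and Ctsb, not past 1.5-fold before, at -0.087. With class markers Ctsa was at -0.44, Ctsd at -0.17, Ctsl at -0.17, Ctsz at -0.11, Lgmn at -0.15 and Cst3 at -0.31, and Ctsb at -0.47. The cause was not tested. Subtraction took 72.6%, 71.2%, 60.8% and 85.2% of the microglia-like UMIs of P301S/EKO, P301S, EKO and WT, and moved the median of all genes in P301S over WT by -0.50. Scaling to the class markers moves each gene by the same amount, -0.77 in P301S over WT at the median of all genes. Over 11 alternatives Ctsd in P301S over WT ranged from 1.07 to 2.00, Ctsz from 0.75 to 1.74, Ctsb from 0.40 to 1.44, Ctss from 0.32 to 1.43, Ctsa from 0.17 to 1.39, Cst3 down to -1.53 and Lgmn down to -1.0. In P301S/EKO over P301S Cst3 ranged from 0.53 to 1.57, Lgmn from 0.50 to 1.14 and Ctsd from -0.81 to -0.23. Depth limits the WT microglia-like values with mixed nuclei left out, which rest on 18 to 440 UMIs per member, and Ctss outside microglia-like nuclei, with 5 UMIs in EKO and 9 in WT astrocyte-like nuclei.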
